A study of Mus musculus with 6 samples.

Results

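Tmem59l and Tmem59 are a pair of related mouse genes for Golgi membrane proteins. They are the rows of the deposited gene table with these gene names, 2 of 33385 genes. Tmem59l was chosen by its higher FPKM level in the knockdown libraries of this very comparison, so its difference between the groups is given here as a description, without a test. Tmem59 is included as its relative and was tested. Both genes were among the 20946 genes with enough counts to test.

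RNA sequencing was done on hippocampus from Bcas2F/F mice, in which Cre recombinase can cut out a part of Bcas2, a splicing factor gene. All libraries of both groups come from such floxed mice. The knockdown group (n = 3) had received AAV2/9-Syn-cre, an adeno-associated virus with Cre under the synapsin promoter, which is active in neurons. The control group (n = 3) had received a virus named AAV-vehicle, whose cargo the labels do not state; they give the genotype of this group as WT. Age, sex and batch are not in the labels, and it is not said whether a library comes from 1 animal. The p-values therefore measure the spread between these libraries. The RNA is from whole tissue, so it includes glia and other cells in which the synapsin promoter is silent. In such bulk RNA, fewer cells of a type and less RNA per cell cannot be told apart.

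TMEM59 is a glycoprotein that crosses the membrane once and lives in the Golgi and in late endosomes. In cultured cells it slows the maturation of the sugar chains of the amyloid precursor protein APP, keeps APP from the cell surface and so lowers its cleavage. It also binds the autophagy protein ATG16L1 through its cytosolic tail and promotes the assembly of Wnt receptor complexes. TMEM59L, first described as a brain-specific membrane-anchored protein, is made mainly by neurons and has likewise been tied to APP processing and to autophagy proteins.

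The genes differ in layout more than in product size. In the GRCm39 coordinates of the deposited table, Tmem59l (ENSMUSG00000035964) is a minus-strand gene of chromosome 8, from 70936517 to 70940008, a span of 3492 bases. Tmem59 (ENSMUSG00000028618) is a plus-strand gene of chromosome 4, from 107035596 to 107058193, and spans 22598 bases. In the GENCODE M21 annotation the longest coding transcript of each has 8 exons, and these code for 337 amino acids in Tmem59l and 323 in Tmem59. The introns of the Tmem59l transcript measure 80 to 795 bases, with a median of 209, and those of the Tmem59 transcript 755 to 6860 bases, with a median of 2753. The Tmem59l transcript is 57.6% G and C over 1491 bases, against 49.4% over 1775 bases for Tmem59. No run of 50 bases is shared between transcripts of the pair on either strand, and none of Tmem59l with any other annotated gene. Tmem59 shares 130 such runs with Tceanc2, a gene on the opposite strand whose start overlaps that of Tmem59 by 718 bases. The libraries keep strand, but the strand setting of the counting is not given in the sources used here, so reads in that overlap are uncertain.

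The promoters are shown for the short elements they hold, and were not aligned with each other. The sequences are from RefSeq on GRCm38.p6, the 250 bases just before the annotated start of each gene, at chr8:70487349-70487598 on the minus strand for Tmem59l and chr4:107178380-107178629 on the plus strand for Tmem59. Capitals mark matches on either strand to the cAMP response element TGACGTCA, the GC box GGGCGG and the CCAAT box CCAAT.
Tmem59l: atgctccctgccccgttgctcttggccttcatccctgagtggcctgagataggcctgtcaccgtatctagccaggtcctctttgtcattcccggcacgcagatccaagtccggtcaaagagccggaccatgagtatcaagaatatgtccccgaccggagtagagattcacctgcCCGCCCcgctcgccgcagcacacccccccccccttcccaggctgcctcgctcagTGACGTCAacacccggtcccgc
Tmem59: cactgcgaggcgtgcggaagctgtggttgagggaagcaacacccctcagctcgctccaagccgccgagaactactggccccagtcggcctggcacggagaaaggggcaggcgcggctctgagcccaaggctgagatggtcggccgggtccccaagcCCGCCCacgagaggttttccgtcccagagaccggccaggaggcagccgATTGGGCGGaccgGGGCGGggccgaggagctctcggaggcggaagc
The Tmem59l window holds 1 full cAMP response element, the palindrome that CREB family factors bind, with 14 bases between it and the start. That element occurs in 508 of 32851 mouse promoter windows of this length (1.55%) and not in the Tmem59 window. The Tmem59l window also has 1 GC box, and the Tmem59 window has 3 GC boxes and 1 CCAAT box, of which the CCAAT box shares bases with a GC box. A GC box occurs in 32.7% and a CCAAT box in 33.8% of all windows. Neither window has the TATA box TATAAA found in 12.4%, or the E box CACGTG found in 6.02%. G and C make up 62.4% of the Tmem59l window and 70.0% of the Tmem59 window, against a median of 52.4%. These matches are letters in a window and no binding was measured here.

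Tmem59l, the neuronal member, was more abundant in every knockdown library than in any control library. Its level was 124, 118 and 131 FPKM in knockdown replicates 1, 2 and 3, and 90.6, 91.5 and 87.6 FPKM in control replicates 1, 2 and 3. FPKM is the authors' fragment density, scaled to gene length and to the library, so levels of different genes can be compared on it. The lowest knockdown library was 1.29 times the highest control library, and the controls lay closely together. The group levels were 124 ± 6.56 FPKM and 89.9 ± 2.00 FPKM (SD, n = 3 each), which puts the knockdown group at 138% of the control level. On the counts, edgeR's fitted log2 fold change was 0.49 (SE 0.0632). These are the values for which the gene was chosen. Groups that do not overlap in this direction made up 5.47% of all tested genes.

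The deposited counts hold the same measurement before scaling to gene length and depth. Tmem59l had 14096, 12715 and 13078 estimated counts in the knockdown libraries and 12369, 9766 and 9126 in the controls, out of totals of 55914768 to 76481458 per library. With the FPKM values of each library rescaled to a common total (TPM), Tmem59l was at 425 to 477 TPM in the knockdown group and at 319 to 341 TPM in the controls. By FPKM, Tmem59l ranked between place 188 and 223 of the genes in the knockdown libraries and between 307 and 311 in the controls.

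Tmem59, the widely expressed member, had overlapping groups. It was at 61.5, 60.3 and 64.8 FPKM in knockdown replicates 1, 2 and 3, and at 64.5, 61.2 and 85.0 FPKM in control replicates 1, 2 and 3. All libraries except control replicate 3 lay between 60.3 and 64.8 FPKM. The group levels were 62.2 ± 2.30 and 70.3 ± 12.9 FPKM (SD, n = 3 each). The log2 fold change was -0.15 (SE 0.122, 95% interval -0.44 to 0.13, adjusted p = 0.848 in edgeR's quasi-likelihood test over all genes). The exact two-sided permutation test of log2(FPKM + 1) gave p = 0.50, in a design of 3 and 3 libraries that cannot give less than 0.10. In percent of the control level, that interval reaches from 73.9% to 110%, so values within it could not be told apart at this spread. Without control replicate 3 the log2 fold change was 0.01.

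**Figure D1:**
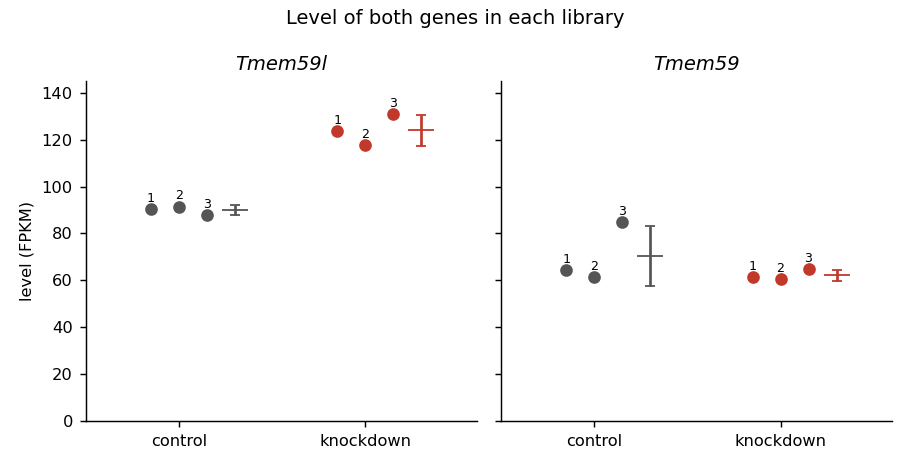
Level of each gene in each library, on a linear axis in FPKM. Points are libraries numbered by replicate, and the bars beside them are the mean ± SD (n = 3). The Tmem59l points of the knockdown group, at 118 to 131 FPKM, lie above all control points, and control replicate 3 alone stands apart for Tmem59, at 85.0 FPKM.

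Within a library, Tmem59l was the more abundant of the pair throughout. The ratio of Tmem59l to Tmem59 in FPKM was 2.01, 1.95 and 2.02 in the knockdown libraries and 1.40, 1.49 and 1.03 in the controls. The ratios of the groups did not overlap. The lowest one, in control replicate 3, comes with the high Tmem59 level there. Since the Tmem59l level chose the gene, the ratio is a description too.

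No gene passed the adjusted threshold of the main test. At an adjusted p under 0.05 edgeR's quasi-likelihood test called 0 of 20946 genes (0.0%). At an unadjusted p under 0.05 it found 1296 (6.19%), 3.03% higher and 3.16% lower, and DESeq2 called 74 at an adjusted p under 0.05 (0.486% of the genes to which it gave one). Bcas2, the targeted splicing factor gene, was at 9.08, 9.17 and 8.87 FPKM in the knockdown libraries and 9.87, 9.71 and 9.44 FPKM in the controls. Its groups were close without overlapping (log2 fold change -0.07, SE 0.0649, edgeR adjusted p = 0.861). A gap in this direction was found for 7.5% of all tested genes. Control replicates 2 and 3 had counts for Y-linked genes and the other 4 libraries had none.

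The place of Tmem59l in the order of fold changes depends on how abundant the genes beside it are. Over all 20946 tested genes it was at place 1803 from the top by log2 fold change. Of 691 tested genes whose mean reached 50 FPKM, 19 had a fold change of that size or larger in either direction, Tmem59l included, and the median absolute log2 fold change was 0.09. Among these genes it was at place 7 from the top. The 6 above it, named here after their values were seen, were Apod, Fam107a, Cpne7, Scg5, mt-Tl1 and Rpl41, with log2 fold changes of 0.57 to 1.22. Their standard errors, 0.172 to 0.789, were larger than that of Tmem59l, and of the 6 the groups did not overlap for Scg5, a secretory granule chaperone gene, and mt-Tl1, a mitochondrial tRNA gene. The spread within groups was also small for Tmem59l. Like its place and standard error, this spread comes from the values for which the gene was chosen, and is a description. Its within-group SD was 0.0579 on the log2(FPKM + 1) scale, against a median of 0.104 over the 691 genes. For Tmem59 it was 0.181, and 83.1% of these genes varied less.

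**Figure D2:**
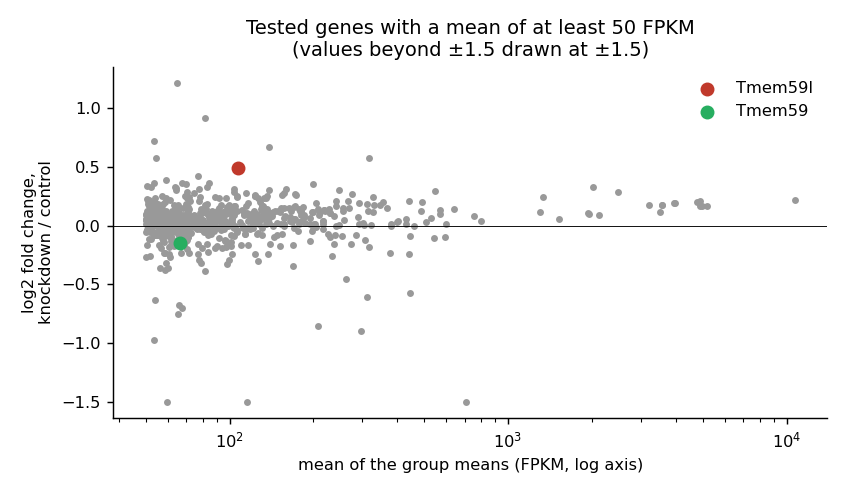
Log2 fold change of knockdown over control against mean level for the 691 tested genes whose mean reached 50 FPKM, with a log horizontal axis. Each point is a gene. Tmem59l, at 0.49, lies above most of the cloud, and Tmem59, at -0.15, lies within it.

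Membrane genes of the Golgi as a whole had values on both sides of 0. The table's annotation gives the pair 3 terms in common, Golgi membrane, Golgi apparatus and membrane. Of 442 tested Golgi membrane genes apart from Tmem59l, 202 had a positive and 240 a negative log2 fold change, with a median of -0.02 against -0.00053 for all tested genes. At an unadjusted edgeR p under 0.05, 12 of these were higher and 13 lower, where 3.03% and 3.16% of all tested genes were. Without overlap, 16 were higher and 43 lower, against 5.47% and 7.5% of all tested genes. By mean FPKM Tmem59l was at place 10 and Tmem59 at place 15 of all 443. Among the 17 whose mean reached 50 FPKM, the log2 fold changes apart from Tmem59l ran from -0.39 to 0.12. The most abundant were Itm2b at 0.01 (SE 0.0818), whose product BRI2 binds APP, Rtn3 at 0.09 (SE 0.0790), a reticulon that binds the protease BACE1, and Clstn1 at 0.12 (SE 0.0893), a kinesin adaptor of APP vesicles.

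The genes beside Tmem59l on its chromosome had log2 fold changes of -0.12 to 0.16, and those beside Tmem59 of -0.11 to 0.10. Klhl26, 6899 bases from Tmem59l, was at 21.2 to 27.2 FPKM in the knockdown and 23.1 to 25.4 FPKM in the control libraries (log2 fold change 0.03, SE 0.103). Crtc1, a coactivator of CREB, had a log2 fold change of 0.06 (SE 0.0791). On the other side, Rex1bd was at -0.12 (SE 0.0974). The other 2 neighbours described here, Comp and 1700020G03Rik, were at 0 to 0.339 FPKM. The edgeR adjusted p of these 5 neighbours was 0.844 to 1.00. Around Tmem59, the neighbours Mrpl37, Cyb5rl, Tceanc2, Lrrc42, Ift25 and Yipf1 had adjusted p-values of 0.858 to 0.987. Tceanc2, which overlaps Tmem59, was at 2.04 to 2.30 FPKM over all libraries and at 2.15 FPKM in control replicate 3.

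**Figure D3:**
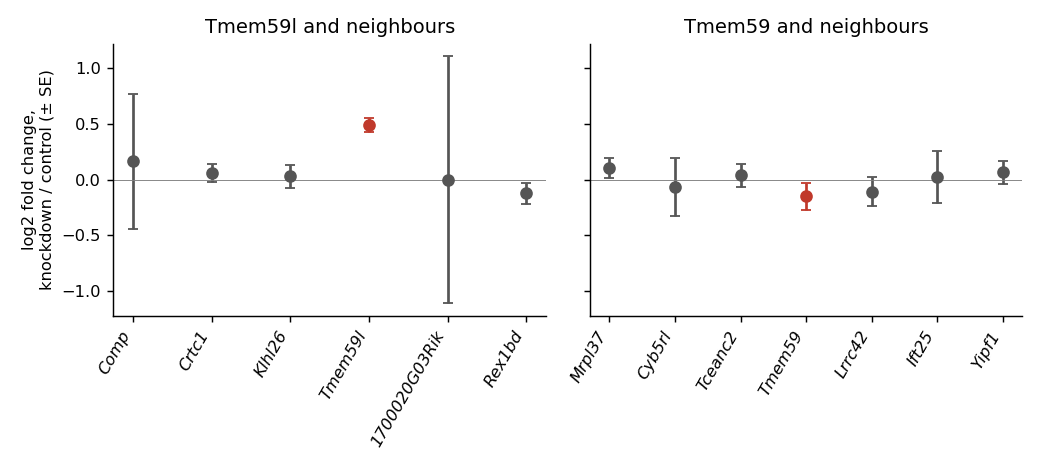
Log2 fold change of knockdown over control (points) with its standard error (bars) for each member and its nearby tested genes, 5 for Tmem59l and 6 for Tmem59, in chromosome order. Tmem59l, at 0.49, stands above its neighbours with a measurable level, and Tmem59, at -0.15, is close to its own.

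The profile of each member over the 6 libraries was compared with those of 7744 other genes whose mean reached 5 FPKM. Likeness was the root mean square difference of log2(FPKM + 1) after subtracting each gene's mean. The nearest to Tmem59l were Necab2, a neuronal calcium-binding protein gene (0.0813), Slc39a7, a zinc transporter gene of the endoplasmic reticulum and Golgi (0.0863), B630019K06Rik (0.0878), Fgfr3, a fibroblast growth factor receptor gene of astrocytes (0.101), and Gm25129 (0.104). In all 5 the knockdown libraries lay above the controls, as the measure requires. Necab2, for example, was at 47.6 to 52.3 FPKM against 32.0 to 40.1 FPKM. The nearest to Tmem59 were Stk39, a kinase gene for ion cotransporter control (0.0316), Tmem106c (0.0321), the splicing repressor gene Ptbp1 (0.0463), Laptm4b, a lysosomal membrane protein gene (0.0494), and Cd164, a sialomucin gene (0.0506). All 5 were highest in control replicate 3. Stk39, for one, had 16.1 FPKM in it against 10.5 to 11.9 FPKM in the other 5 libraries. A flat profile was at 0.235 from Tmem59l and 0.168 from Tmem59, and the pair were at 0.350 from each other, farther than either from a flat line.

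**Figure D4:**
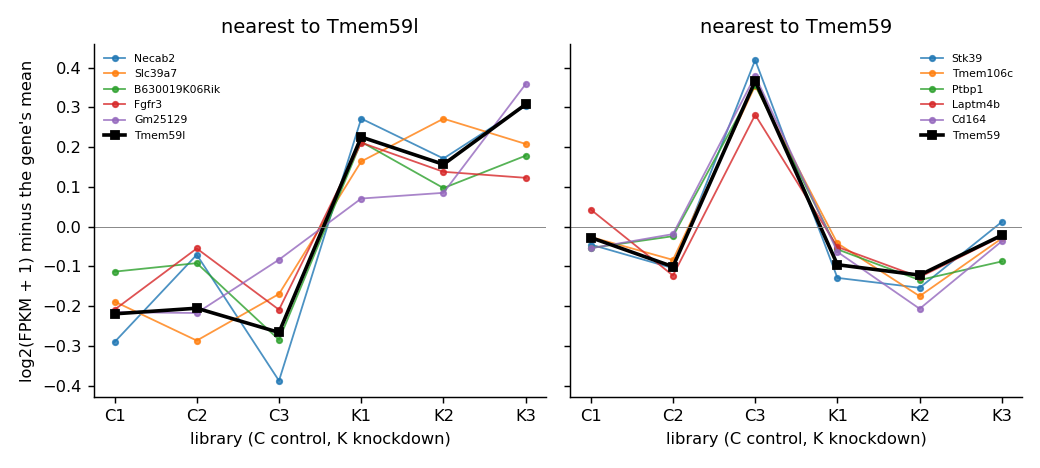
Profiles over the 6 libraries as log2(FPKM + 1) minus each gene's own mean, for Tmem59l (left) and Tmem59 (right) in black with the 5 nearest genes of each in colour. The left profiles step up from the controls (C1 to C3) to the knockdown libraries (K1 to K3), and the right profiles peak in control replicate 3.

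Markers of hippocampal cell types were present, and several lists moved with the groups or with 1 library. All 10 general neuron markers were present in all libraries, and their summed level was 1080 to 1170 FPKM in the knockdown and 982 to 1160 FPKM in the control group. None of the 10 had an unadjusted edgeR p under 0.05, which 6.19% of all tested genes had. Tmem59l came to 10.6%, 10.9% and 11.2% of that sum in the knockdown libraries and to 7.80%, 8.01% and 8.93% in the controls. The part of neuron content in its difference was not tested. The most abundant neuron markers were Snap25, with a log2 fold change of 0.12 (SE 0.079), and Syp, with 0.17 (SE 0.0936). All 6 interneuron markers had a positive log2 fold change, of 0.0933 to 0.325 with a median of 0.275, the same direction as Tmem59l. None had an unadjusted p under 0.05, and their sums overlapped, at 229 to 287 FPKM in the knockdown and 218 to 243 FPKM in the control libraries. Of the 6 pyramidal neuron markers 5 were negative (median -0.05), as were 3 of the 4 dentate granule neuron markers (median -0.18), and both sums overlapped between the groups.

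Glial and choroid plexus markers differed more. The summed level of 6 oligodendrocyte markers was 560 to 580 FPKM in the knockdown and 683 to 1080 FPKM in the control libraries, with none at 0. At an unadjusted edgeR p under 0.05, 5 of the 6 were lower, where 3.16% of all tested genes were. The 4 markers of oligodendrocyte precursors summed to 61.0 to 63.2 against 65.0 to 75.4 FPKM, a sum carried by Olig1 (52.5 ± 2.52 against 60.8 ± 5.42 FPKM, SD, n = 3 each). The other 3 had positive log2 fold changes, Pdgfra for example 0.18 (SE 0.142), and the list median was 0.13. Of 6 astrocyte markers 5 were negative, with a median of -0.17, 4 lower without overlap and 2 lower at an unadjusted p under 0.05. Of all tested genes, 7.5% were lower without overlap. Their sums were 268 to 314 FPKM in the knockdown and 312 to 339 FPKM in the control libraries. The part of these glial differences in that of Tmem59l was not tested. The 5 choroid plexus markers summed to 4280 FPKM in control replicate 3 and to 2.36 to 14.8 FPKM elsewhere, none at 0 in any library. Tmem59 was at 135% of the mean of the other 2 controls in that library, and the part of choroid plexus tissue in this was not tested. Tmem59l was lowest there, at 87.6 FPKM. All 4 ependymal markers were negative (median -0.65), as were 3 of 4 meningeal markers (median -0.62). Of the microglia markers 4 of 6 were positive (median 0.03), and of the endothelial markers 2 of 4 (median 0.08). The sums of these 4 lists overlapped between the groups.

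The libraries with and without Y-linked counts could be compared within the controls for Tmem59l. Control replicate 1, without such counts, was at 90.6 FPKM, between the 91.5 and 87.6 FPKM of the 2 with them. That is a single library, and no knockdown library had such counts. The part of this imbalance in the Tmem59l difference was not tested. Refitted on the 4 libraries that lack these counts, a choice made once the data had been seen and one that leaves a single control, Tmem59l had a log2 fold change of 0.47 and Tmem59 of -0.04. Genes were also grouped into 10 bins by transcript composition. Genes in the same bin by G and C content as Tmem59l had a median log2 fold change of -0.01, and those in the same bin by length of 0.01, over the 97.0% of tested genes with an annotated transcript.

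None of the listed partner genes passed the test over all genes, in which 0 of 20946 genes (0.0%) passed. App itself, at 109 ± 3.27 against 108 ± 3.18 FPKM (SD, n = 3 each), had a log2 fold change of 0.03 (SE 0.0658, 95% interval -0.12 to 0.18). Of 19 genes of the APP family and its secretases, 6 had a positive and 13 a negative log2 fold change, with a median of -0.04. At an unadjusted edgeR p under 0.05, 0 of them passed, against 6.19% of all tested genes. The α-secretase gene Adam10 was at 14.3 to 15.7 against 16.1 to 16.6 FPKM (log2 fold change -0.08, SE 0.0620), without overlap. Bace1, the β-secretase gene, overlapped, at 19.3 to 20.1 against 19.2 to 22.8 FPKM. The 3 with the smallest p were Aph1b (0.16, SE 0.115), Adam17 (-0.23, SE 0.168) and Adam9 (-0.10, SE 0.0719). Groups that do not overlap in the lower direction made up 7.5% of all tested genes.

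Genes that sort APP or bind its tail were spread around 0. Of 32, 17 were positive and 15 negative, with a median of 0.0048, and 1 in each direction had an unadjusted edgeR p under 0.05. Of all tested genes, 3.03% were higher and 3.16% lower at that p. Itm2a, a relative of Itm2b, was at 15.3 to 20.1 against 22.2 to 28.6 FPKM (log2 fold change -0.55, SE 0.133, adjusted p = 0.792). Nsg1, a neuronal endosome protein gene, was at 71.2 to 78.6 against 57.2 to 69.2 FPKM (0.25, SE 0.0873, adjusted p = 0.792). Sorcs2, a sorting receptor gene, followed with 0.19 (SE 0.0912).

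The enzymes that build sugar chains in the Golgi, the step of APP maturation that TMEM59 affects, had 12 positive and 24 negative values of 36, with a median of -0.03. Of all tested genes, 3.03% were higher and 3.16% lower at an unadjusted edgeR p under 0.05. Of these enzymes, 0 were higher and 2 lower at that p. These were the sialyltransferase gene St3gal4, at 4.49 to 4.74 against 5.69 to 7.27 FPKM (log2 fold change -0.43, SE 0.128), and the mannosidase gene Man1c1, at 4.48 to 4.98 against 5.46 to 5.73 FPKM (-0.24, SE 0.0787), each with an adjusted p of 0.792. The third by p was Galnt7, a starter of O-linked chains, at 0.26 (SE 0.114). Of 30 Golgi matrix and tether genes, 9 were positive and 21 negative, with a median of -0.04, and 3 were lower at an unadjusted p under 0.05. Golga7, a palmitoyltransferase cofactor gene, had -0.32 (SE 0.0867), Trip11, for the golgin GMAP-210, -0.21 (SE 0.0758), and Golph3, a Golgi phosphoinositide reader gene, -0.17 (SE 0.0715). Their groups did not overlap, and the adjusted p was 0.792 for each. Of the 30 genes, 6 were lower and 0 higher without overlap, against 7.5% and 5.47% of all tested genes.

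Autophagy and Wnt partners also had values on both sides of 0. Atg16l1 was at 6.58 to 7.18 against 6.47 to 6.76 FPKM (log2 fold change 0.09, SE 0.0646), and Atg5, whose product joins ATG16L1 in the complex that lipidates LC3, had 0.06 (SE 0.0963). Of the 22 genes of this conjugation system 14 were positive and 8 negative, with a median of 0.02. Atg12 (-0.17, SE 0.0620) and Tecpr1 (-0.14, SE 0.0571) were lower at an unadjusted edgeR p under 0.05, as were 3.16% of all tested genes. Gabarapl1, an LC3 relative, was at 222 to 233 against 201 to 216 FPKM (0.13, SE 0.0649). Of 27 Wnt receptor and signalosome genes, 7 were positive and 20 negative, with a median of -0.06. Lrp6, the coreceptor whose signalling TMEM59 promotes, was at 3.86 ± 0.192 against 4.56 ± 0.676 FPKM without overlap (SD, n = 3 each; -0.22, SE 0.108, edgeR adjusted p = 0.798). The frizzled receptor gene Fzd6 (-0.37, SE 0.142) and the kinase gene Csnk1g2 (-0.18, SE 0.0687) were the 2 with an unadjusted p under 0.05. Groups that do not overlap in the lower direction were found for 5 of these 27 genes, against 7.5% of all tested genes. Of 7 tested genes of the microglial TREM2 complex, to whose receptor TMEM59 has been linked, 5 were positive and 2 negative, with a median of 0.07. Trem2 was at 0.796 to 1.43 against 1.11 to 1.53 FPKM (-0.34, SE 0.255), Inpp5d had 0.32 (SE 0.152) and Apoe -0.11 (SE 0.111), and none had an unadjusted p under 0.05. The sign of a list median changed under some alternatives for the lists of the APP family (-0.08 to 0.01 over all of them), APP sorting (-0.04 to 0.02), LC3 conjugation (-0.0024 to 0.04) and TREM2 (-0.04 to 0.12).

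**Figure D5:**
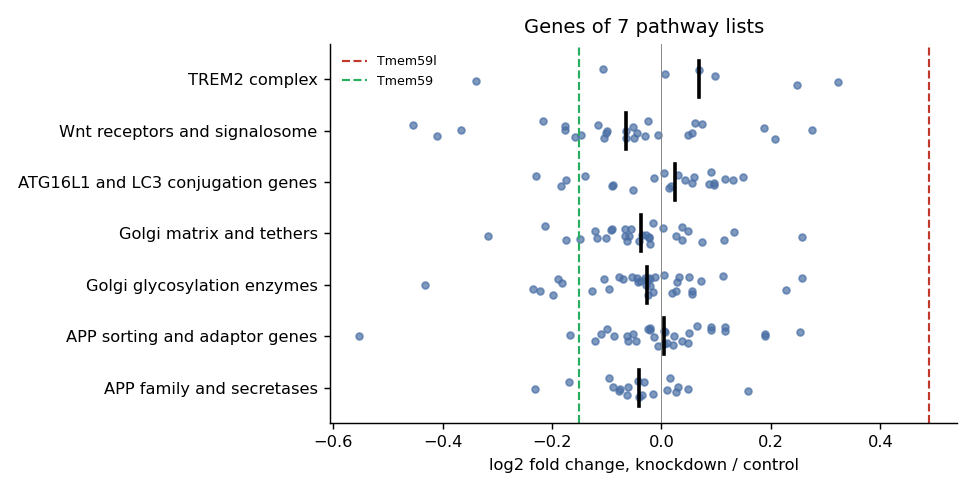
Log2 fold change of knockdown over control for each tested gene (points) of 7 lists of partner genes, with the list median as a black bar. Dashed lines mark Tmem59l at 0.49 and Tmem59 at -0.15. The list medians lie between -0.06 and 0.07, and no listed gene reaches the Tmem59l line on the positive side.

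Genes with the same promoter element as Tmem59l had values on both sides of 0. Of 361 other tested genes with a full cAMP response element in the 250 bases before the RefSeq start, a list made after the Tmem59l promoter was read, 171 had a positive and 190 a negative log2 fold change, with a median of -0.01. At an unadjusted edgeR p under 0.05, 12 of them were higher and 15 lower, where 3.03% and 3.16% of all tested genes were.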

How the data were processed

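Per the submitters' processing notes, the build was GRCm39 and the tools were StringTie 2.1.6, HISAT2 2.2.1, cutadapt 1.9, edgeR and DESeq2. The sources used here give no settings, annotation release or strand setting. Per the file headers, the authors deposited FPKM values and estimated counts, both per gene and library. The deposited counts were whole already, and rounding left them as they were. They cluster at multiples of 4, so the number of read pairs is not known, and intervals cover these libraries only. Per the labels' protocols, RNA was poly(A) selected and strand-marked.

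Libraries were grouped by their titles. edgeR 4.0.16 in R 4.3.3 was fitted over all genes (filterByExpr, TMM, quasi-likelihood F test, Benjamini-Hochberg adjustment at 0.05, common biological coefficient of variation 28.6%), and standard errors come from the fold change and F statistic. No pair of libraries was a duplicate, since the lowest chi-square per gene was 6.31. The script was tested on simulated counts. Alternatives used DESeq2 1.42.0 and limma 3.58.1 on log2(FPKM + 1). The members and the lists of 174 partner genes and cell type markers were chosen with earlier results of these data known. Named genes were the fixed partners, the 3 with the smallest p of each list, the 5 nearest profiles, the 3 nearest tested neighbours on each side and abundant markers (2 genes under this rule are not reported here); others are said to be named after their values were seen. Promoters come from RefSeq on GRCm38.p6 and transcript structures from GENCODE M21, whose coordinates were not mixed with the table's.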

Additional observations from a re-analysis of the deposited data

How the results depend on the processing

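The log2 fold change of Tmem59l was 0.45 to 0.52 over 18 alternatives and, leaving out each library in turn, covered the same range. These refits reuse the values for which Tmem59l was chosen, so the range is a description. For Tmem59 it was -0.24 to 0.01 when each library was left out, turning positive (0.0053, adjusted p = 0.999) without control replicate 3, and its adjusted p stayed between 0.624 and 0.999 over the 18 alternatives. The number of genes past an adjusted p under 0.05 was 74 with DESeq2 (26 higher, 48 lower), and 0 to 6 when each library was left out. The 6, without control replicate 1, were Phc3, Xist and the Y-linked Kdm5d, Uty, Ddx3y and Eif2s3y. Apart from Phc3, these split the remaining libraries by sex-linked transcripts. The number was 1 with counts divided by 4 and 1 with quantile normalization in limma (Itih3 in both), and 1 with a term for Y-linked counts (Proz). These genes are named after their values were seen. Of 126 list medians under an alternative, 102 moved by less than 1 within-group SD and the whole range was -0.09 to 0.12; the cause of the other 24 was not tested.

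The labels do not say whether libraries with the same replicate number belong together. Deviations from the group means correlated over genes at -0.0206, -0.112 and -0.13 for same-numbered libraries, and at -0.0989 to 0.186 for the others. Such deviations sum to 0 within a group of 3, so they cannot decide whether the libraries were paired. With a replicate block in edgeR, 0 genes passed, 1048 had an unadjusted p under 0.05, and the log2 fold changes were 0.49 for Tmem59l and -0.14 for Tmem59. With 3 libraries a group the spread between libraries, not counting, limits these values.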
